A study of Mus musculus with 9 samples.

Results

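The enzymes that supply NADPH, the reducing cofactor of antioxidant defence and lipid synthesis, were followed in cultured lung cells with and without Nrf2. The members were taken by symbol and were 7 genes in all. They were G6pdx, Pgd, Taldo1 and Tkt of the pentose phosphate pathway, the malic enzyme gene Me1, and the isocitrate dehydrogenase genes Idh1 and Idh2. Every probe set annotated with 1 of these symbols and no other was used, which gave 14 of the 45037 probe sets analysed, 13 of them bright enough to be tested. Pgd had 4, Tkt 3, Me1, Idh1 and Idh2 2 each, and Taldo1 had 1. No probe set was listed under the symbol G6pdx alone, so this gene was not analysed here and 6 members remained. Gene expression had been measured on 9 arrays in 3 groups of 3. All came from cells that the labels call type II, the surfactant-making epithelial cells of the lung. The mice were labelled as female, of the ICR10 strain and aged 2 months. The cells were grown for 5 days with keratinocyte growth factor. The groups were wild type (Nrf2+/+), knockout (Nrf2-/-) and knockout supplemented with GSH, for which no dose or time is given in the sources used here. The knockout is carried by the mice and so by every cell of the culture. The labels give 1 tissue per array but do not say that the arrays of a group were separate animals or cultures, so a p-value here reflects no more than array-to-array spread, part or all of which may be technical.

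NADPH is made in the cytosol at the oxidative steps of the pentose phosphate pathway, catalysed by glucose-6-phosphate dehydrogenase (G6pdx) and 6-phosphogluconate dehydrogenase (Pgd). Malic enzyme 1 and the cytosolic isocitrate dehydrogenase (Idh1) make it from malate and isocitrate, and Idh2 does so in mitochondria. Transaldolase (Taldo1) and transketolase (Tkt) make no NADPH themselves and recycle the sugar phosphates of the pathway. Glutathione reductase and thioredoxin reductase spend NADPH to keep glutathione and thioredoxin reduced. Several of the genes, Me1, Pgd, Taldo1, Tkt and G6pdx among them, are textbook targets of Nrf2, which binds antioxidant response elements in DNA. In lung epithelium such enzymes support defence against inhaled oxidants and the making of surfactant lipid.

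The core of that element, TGACNNNGC, was searched on both strands of the RefSeq promoter windows of the 6 measured members (build GRCm38.p6, 300 bases each, 250 before and 50 after a transcript start). All 6 had an entry, with 9 windows between them. The core was present in 2 windows, of Me1 and of Pgd, and in 12.4% of all 32851 windows of the table. All matches found are shown. The window of Taldo1, which like Me1 and Pgd was lower in knockout, held none. Capitals mark the core, and each line reads 5′ to 3′ along the gene.
Me1: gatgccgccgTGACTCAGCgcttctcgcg
Pgd: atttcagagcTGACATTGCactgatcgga
The Me1 stretch lies at chr9:86695902-86695930 on the minus strand, and its core spans the transcript start. It overlaps TGACTCA, the motif of AP-1 factors, found in 5.20% of all windows. The Pgd stretch lies at chr4:149166061-149166089 on the minus strand, in the second of the gene's windows. It crosses the transcript start of that window, and its core lies 3 bases after that start. A match is a run of letters and no measured site, and windows of this length leave distant elements out.

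Values are intensities in arbitrary units, on arrays that the authors had scaled to a 2% trimmed mean of 500. A number in the sample titles split each group into 2 arrays (set 2) and 1 array (set 3), and the model held a term for it. The main Nfe2l2 probe set, which reports the Nrf2 transcript, read 3879, 3889.8 and 4173 on wild-type arrays, 28.7 to 77.4 on knockout arrays and 33.3 to 46.2 with GSH. Sftpc, the defining type II transcript, was at or below the level of the control probe sets on all 3 wild-type arrays, and averaged 89.1 in knockout and 108 with GSH. Markers of other cells were bright. The summed signal of 15 macrophage markers was 37541 to 37770 in wild type, 66777 to 75072 in knockout and 92921 to 107931 with GSH. For 12 fibroblast and mesenchymal markers it was 91049 to 96420, 111480 to 145531 and 53338 to 57971 in the same order. For 8 transitional epithelial markers it was 58710 to 62830, 29687 to 35287 and 78523 to 96071, and for 10 type II markers 5165 to 6199, 5644 to 6376 and 9495 to 10714. No macrophage, fibroblast or transitional epithelial marker was at or below the control level on every array of a group. The cultures were read in bulk, so fewer cells of a type and less RNA per cell cannot be told apart. The brighter probe set of Y-linked Eif2s3y read 701 to 936 on wild-type arrays and at most 24.4 on the others although all animals are labelled female, so genotype and sex-linked expression cannot be told apart. Centring every array on its median moved the median change of all probe sets from 0.02 to -0.13 for knockout with GSH against wild type. It also lowered the share of higher calls from 49.97% to 35.1% for knockout against wild type and from 50.2% to 32.7% for knockout with GSH against wild type.

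Loss of Nrf2 went with lower Me1, Taldo1 and Pgd and with higher Idh1 and Idh2 signals, while Tkt was not called. In knockout against wild type, 6 of the 13 member probe sets that passed the signal filter were lower and 4 higher, by limma with a Benjamini-Hochberg adjusted p under 0.05. Of all 22519 probe sets tested, 29.1% were called in that comparison, 14.6% higher and 14.6% lower. The median size of the change, whatever its sign, was 0.38 log2 units over the members and 0.22 over all probe sets. The median signed change was -0.16 and 0.00. In knockout with GSH against knockout, 7 of 13 were higher and 1 lower, where 35.4% of all probe sets were called, 18.4% higher and 17.0% lower. The median size was 0.27 over the members and 0.25 over all. In knockout with GSH against wild type, 4 were higher and 4 lower, where 44.7% of all probe sets were called, 22.5% higher and 22.3% lower. The 3 comparisons share their groups, so they are not independent of each other. All 10, 8 and 8 calls had the same sign in both sets. The 2 groups compared did not overlap for 8, 7 and 9 of the 13 member probe sets, and for 30.2%, 33.6% and 43.4% of all probe sets.

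**Figure D1:**
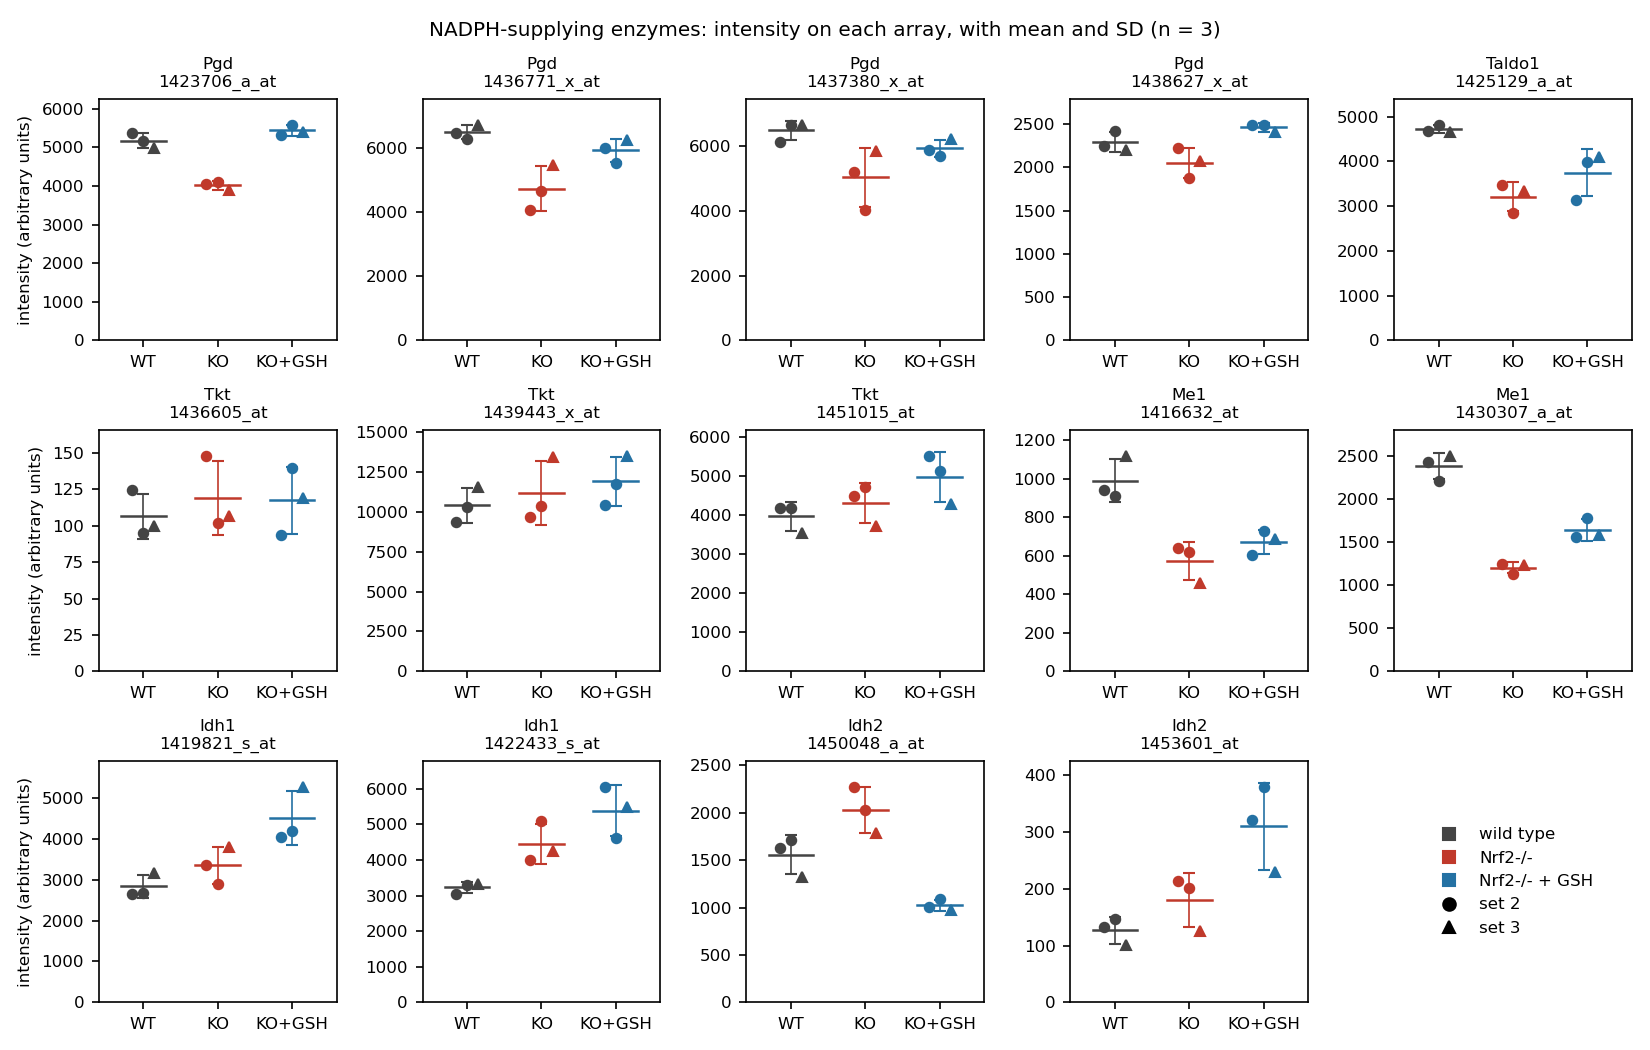
Intensity (arbitrary units, linear axis from 0) of each of the 14 member probe sets on the 9 arrays, with group mean and SD (n = 3). Circles are arrays of set 2 and triangles arrays of set 3. Me1 is lower on all 3 knockout arrays than on every wild-type array, Pgd 1423706_a_at is higher on every GSH array (5327 to 5588) than on every knockout array, and Idh2 1450048_a_at is lowest on the GSH arrays.

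Me1, the cytosolic malic enzyme, showed the largest fall among the members in knockout cells. Its brighter probe set, 1430307_a_at, read 2428, 2213 and 2505 on wild-type replicates 3, 4 and 5. It read 1251, 1129.9 and 1232 on knockout replicates 2, 3 and 4, and 1558, 1787 and 1586 on the GSH replicates of the same numbers. The groups did not overlap, with knockout lowest, GSH between and wild type highest. The knockout mean of 1204 ± 65.2 (SD, n = 3) lay below that of wild type, 2382 ± 151. The fitted fall was 1.98-fold (-0.98 ± 0.08 on the log2 scale, SE, limma adjusted p = 4.8e-06). With GSH the mean was 1644 ± 125, higher than in knockout by 0.45 ± 0.08 (adjusted p = 0.0012) and lower than in wild type by 0.54 ± 0.08 on the log2 scale (adjusted p = 2.4e-04). These 3 calls held in all 19 alternatives that give a log2 change. The submitters' fold rule, which asks for 1.5-fold, is not among these and lost the call of GSH against wild type. The second probe set, 1416632_at, read 942, 908 and 1119 in wild type, 638, 622 and 460 in knockout, and 603, 728 and 686 with GSH. It was lower in knockout (-0.80 ± 0.14, adjusted p = 0.0014). For the GSH groups it gave 0.24 log2 units (95% interval -0.07 to 0.55, adjusted p = 0.21 against knockout), which was not called. Its call against wild type (-0.56, adjusted p = 0.0070) was lost without wild-type replicate 5 (adjusted p = 0.051) and with the replicate number as a block. The summed signal of 4 club cell markers, 2 of them bright enough to be tested, had the order of Me1. The sum was 6454 to 8002 in wild type, 491 to 764 in knockout and 2816 to 2954 with GSH. Scgb1a1 alone gave this order, with means of 6725, 281 and 2490. The other club marker means were lowest in wild type and highest with GSH. They were 204, 220 and 270 for Scgb3a1, which was not called. For Scgb3a2 (26.8, 40.3 and 59.1) and Cyp2f2 (36.5, 41.9 and 54.0) the signal was too dim to be tested. Type I cell markers were also lower in knockout (7 of 9 called lower, 0 higher) and rose with GSH (4 higher, 0 lower). The part of these markers in the Me1 values was not tested.

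Pgd, which oxidises 6-phosphogluconate, was lower in knockout by 3 of its 4 probe sets and higher with GSH than in knockout by 3 of 4. The probe set 1423706_a_at read 5376, 5166 and 4977 in wild type, 4065, 4100.5 and 3894 in knockout, and 5327, 5588 and 5404 with GSH. Knockout lay below both other groups without overlap, while wild type and GSH overlapped. The change was -0.36 ± 0.06 in knockout (1.29-fold lower, limma adjusted p = 5.1e-04) and 0.44 ± 0.06 with GSH against knockout (1.35-fold higher, adjusted p = 8.3e-05). GSH arrays and wild-type arrays differed by 0.07 (95% interval -0.05 to 0.19, adjusted p = 0.31). The other 3 Pgd probe sets carry the suffix _x_at, which marks probes that also resemble other sequences, so their signal may hold other transcripts. 1436771_x_at moved alike, from 6504 ± 222 to 4741 ± 711 and 5948 ± 359 (-0.47 ± 0.08, adjusted p = 8.3e-04, then 0.34 ± 0.08, adjusted p = 0.0048). Its knockout call was lost with the replicate number as a block (-0.39, adjusted p = 0.057). Its GSH arrays lay below all wild-type arrays (-0.13, adjusted p = 0.19), a difference that was called with quantile normalisation (-0.20, adjusted p = 0.030) and with median centring (-0.28, adjusted p = 0.030). Against wild type, GSH gave -0.13 for 1437380_x_at (adjusted p = 0.30) and 0.10 for 1438627_x_at (adjusted p = 0.28, -0.05 with median centring), neither of them called. 1437380_x_at was lower in knockout (-0.38, adjusted p = 0.012). That call was lost without wild-type replicate 4 (adjusted p = 0.060), without the set term (0.081) and with the replicate number as a block (0.069). Its difference with GSH was 0.25 (adjusted p = 0.062), which passed without knockout replicate 2 (0.037) or 4 (0.033). 1438627_x_at, the dimmest, was not called in knockout (-0.16, 95% interval -0.32 to 0.00, adjusted p = 0.14). With GSH it was higher by 0.26 (adjusted p = 0.017), but not with the replicate number as a block (adjusted p = 0.054) nor without knockout replicate 3 (adjusted p = 0.054). The transitional epithelial markers given above were likewise lower in knockout than in the other groups (6 of 8 called lower, then 7 of 8 higher with GSH), and their part in the Pgd values was not tested.

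Taldo1, the transaldolase, was lower in both knockout groups. Its single probe set, 1425129_a_at, read 4688, 4818 and 4652 in wild type, 3467, 2844 and 3328 in knockout, and 3137, 3995 and 4107 with GSH. All 6 knockout values lay below the 3 of wild type, and the knockout groups overlapped each other. The change in knockout was -0.56 ± 0.10 (1.47-fold lower, limma adjusted p = 0.0016). This call held in all 19 alternatives that give a log2 change. GSH and knockout differed by 0.22 (95% interval -0.01 to 0.44, adjusted p = 0.12), which passed without GSH replicate 2 (adjusted p = 0.014). Against wild type the GSH group was lower by 0.34 on the log2 scale (adjusted p = 0.017). That call was lost in 6 of 19 alternatives. Among these was the removal of wild-type replicate 3 (adjusted p = 0.053) or 4 (0.064) or GSH replicate 2 (0.063). The club cell marker Scgb1a1 and the type I cell markers given above were also lower in knockout, and their part in the Taldo1 values was not tested.

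Tkt, the transketolase, showed no called change in knockout. The probe set 1451015_at read 4178, 4186 and 3536 in wild type, 4474, 4709 and 3726 in knockout, and 5509, 5125 and 4268 with GSH. The arrays of set 3 were the lowest of each group, and knockout overlapped wild type. Knockout and wild type differed by 0.11 (95% interval -0.01 to 0.24, limma adjusted p = 0.17). With GSH the signal was higher than in knockout by 0.21 ± 0.06 (adjusted p = 0.016), but not with the replicate number as a block (adjusted p = 0.14) nor without GSH replicate 2 (0.056) or knockout replicate 4 (0.061). It was higher than in wild type by 0.32 ± 0.06 (adjusted p = 8.7e-04), a call lost with median centring (0.17, adjusted p = 0.12). The probe set 1439443_x_at, with means of 10390.2 ± 1091, 11157 ± 2006 and 11892 ± 1537 in the order wild type, knockout and GSH, was highest on the set 3 array of each group. It was not called in knockout (0.09, 95% interval -0.07 to 0.25, adjusted p = 0.38). The sign of this difference turned with quantile normalisation (-0.02), and that of 1451015_at with the replicate number as a block (-0.02). The GSH value of 1439443_x_at against wild type was 0.19 (adjusted p = 0.050479), which passed without wild-type replicate 4 (0.040), knockout replicate 2 (0.043) or 3 (0.048) or GSH replicate 2 (0.038). The third Tkt probe set, 1436605_at, was dim at 93.6 to 148 and missed the filter. Without the filter its differences were 0.15 (adjusted p = 0.79) and -0.02 (adjusted p = 0.98).

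Idh1, the cytosolic isocitrate dehydrogenase, was higher in knockout and highest with GSH. 1422433_s_at read 3055, 3291 and 3338 in wild type, 4002, 5092 and 4252 in knockout, and 6054, 4624 and 5475 with GSH. Wild type lay below both other groups, which overlapped. The rise in knockout was 0.46 ± 0.11 (1.37-fold, limma adjusted p = 0.0090), a call lost with the replicate number as a block (0.47, adjusted p = 0.073). With GSH the signal was 0.73 ± 0.11 above wild type (1.66-fold, adjusted p = 2.1e-04). GSH and knockout differed by 0.27 (95% interval 0.03 to 0.51, adjusted p = 0.073), which passed without knockout replicate 3 (0.014) or GSH replicate 3 (0.017). 1419821_s_at read 2654, 2681 and 3158 in wild type, 3354, 2903 and 3805 in knockout, and 4050.1, 4197 and 5266 with GSH. Here GSH lay above both other groups and knockout overlapped wild type. It rose by 0.42 ± 0.07 with GSH against knockout (adjusted p = 4.3e-04) and stood 0.66 ± 0.07 above wild type (adjusted p = 9.3e-06). Its change in knockout was smaller (0.24 ± 0.07, adjusted p = 0.019) and was lost in 10 of 19 alternatives. Among these was the removal of wild-type replicate 3, 4 or 5 (adjusted p = 0.060, 0.054 and 0.084) or knockout replicate 2 or 4 (0.070 and 0.057). With median centring it was 0.15 (adjusted p = 0.31). The suffix _s_at of both marks probes shared by several transcripts. Macrophage markers were also lowest in wild type and highest with GSH (13 of 15 called higher and 2 lower in knockout, 9 higher and 2 lower with GSH against knockout), and their part in the Idh1 values was not tested.

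Idh2, the mitochondrial isocitrate dehydrogenase, gave opposite answers from its 2 probe sets in the GSH comparison. The bright one, 1450048_a_at, read 1626, 1716 and 1327 in wild type, 2273, 2027 and 1785 in knockout, and 1005, 1091 and 969 with GSH. None of the 3 groups overlapped, knockout being highest and GSH lowest. The signal was higher in knockout by 0.38 ± 0.08 (1.30-fold, limma adjusted p = 0.0038). That call was lost with median centring (0.29, adjusted p = 0.076), without the term for set (adjusted p = 0.087) and with the replicate number as a block (0.24, adjusted p = 0.24). With GSH it was 1.98-fold lower than in knockout, a log2 change of -0.98 ± 0.08 (adjusted p = 2.0e-06), and 1.52-fold lower than in wild type (-0.60 ± 0.08, adjusted p = 7.9e-05). These GSH calls held in all 19 alternatives that give a log2 change. The submitters' fold rule, not among them, lost the call against wild type. The fall from knockout was -1.04 within set 2 and -0.88 between the single arrays of set 3. The dim probe set, 1453601_at, read 133, 148 and 101 in wild type, 214, 201 and 126 in knockout, and 321, 379.9 and 229 with GSH. GSH lay above both other groups, and the array of set 3 was the lowest of each group. It was 1.73-fold higher with GSH than in knockout (0.79 ± 0.16, adjusted p = 0.0025) and 2.42-fold higher than in wild type (1.27 ± 0.16, adjusted p = 6.0e-05). Its difference in knockout (0.48 ± 0.16, adjusted p = 0.044) was lost in 15 of 18 alternatives, with adjusted p from 0.011 to 0.61 over them. Every removal of a single array lost it except that of GSH replicate 2, with adjusted p from 0.056 without GSH replicate 3 to 0.15 without wild-type replicate 3. The centred log2 profiles of the 2 probe sets differed by a root mean square of 0.88, against 0.12 to 0.30 between other probe sets of the same gene.

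**Figure D2:**
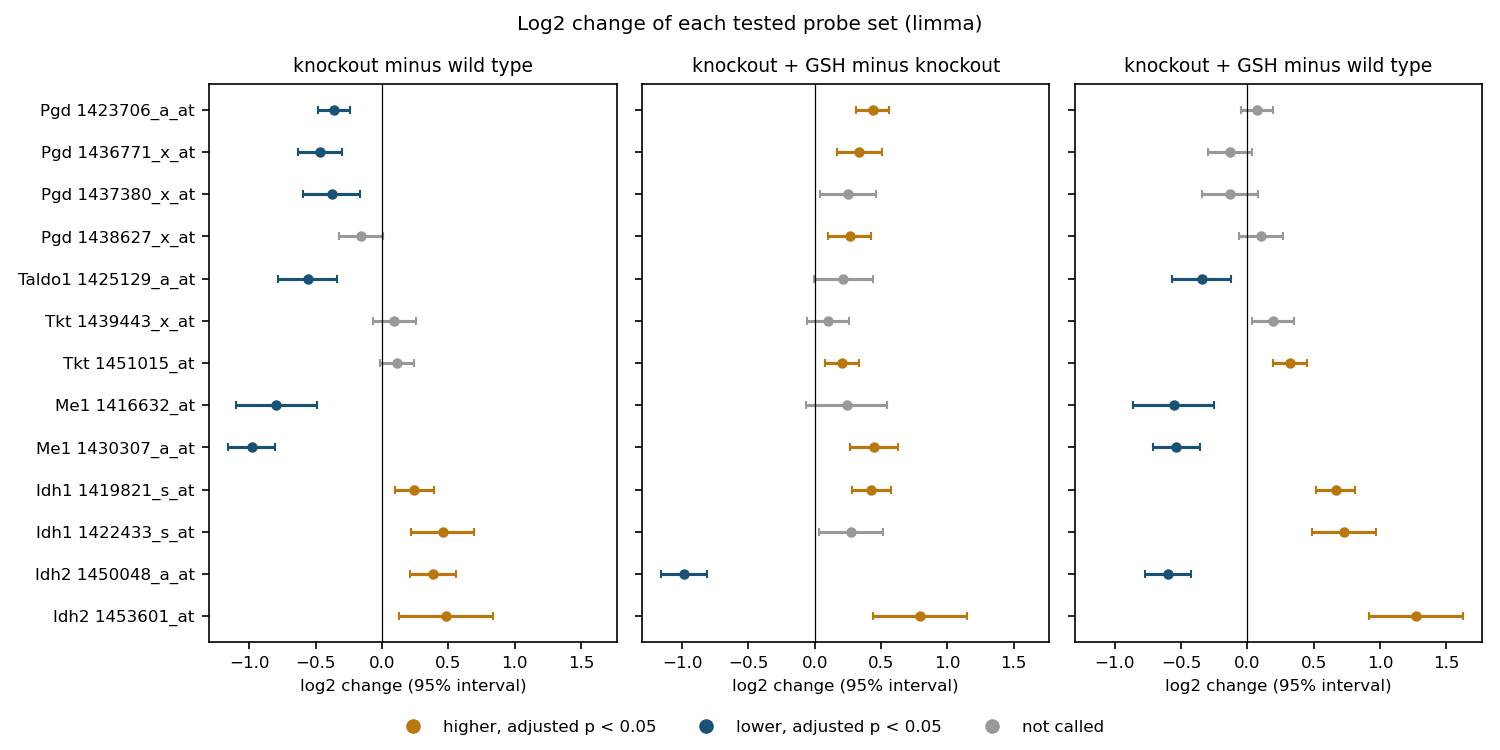
Log2 change with its 95% interval (limma, 9 arrays) of the 13 tested member probe sets in each comparison, as points with horizontal bars. Me1, Taldo1 and most Pgd probe sets lie left of 0 in knockout, and with GSH against knockout only Idh2 1450048_a_at lies left of 0, at -0.98, while Idh2 1453601_at lies at 0.79.

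The bright Idh2 probe set followed the same order of groups as the fibroblast and mesenchymal markers. Of those 12 markers, 9 were called higher and 1 lower in knockout, and 0 higher and 11 lower with GSH against knockout, with a median of -2.47. The part of these markers in the Idh2 values was not tested. H6pd, which runs the oxidative pentose phosphate steps inside the endoplasmic reticulum, had the same order too. It went from 2258 ± 93.4 in wild type to 3045 ± 306 in knockout (0.43, limma adjusted p = 0.0012) and 1388 ± 65.1 with GSH (-1.13, adjusted p = 3.5e-07).

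**Figure D3:**
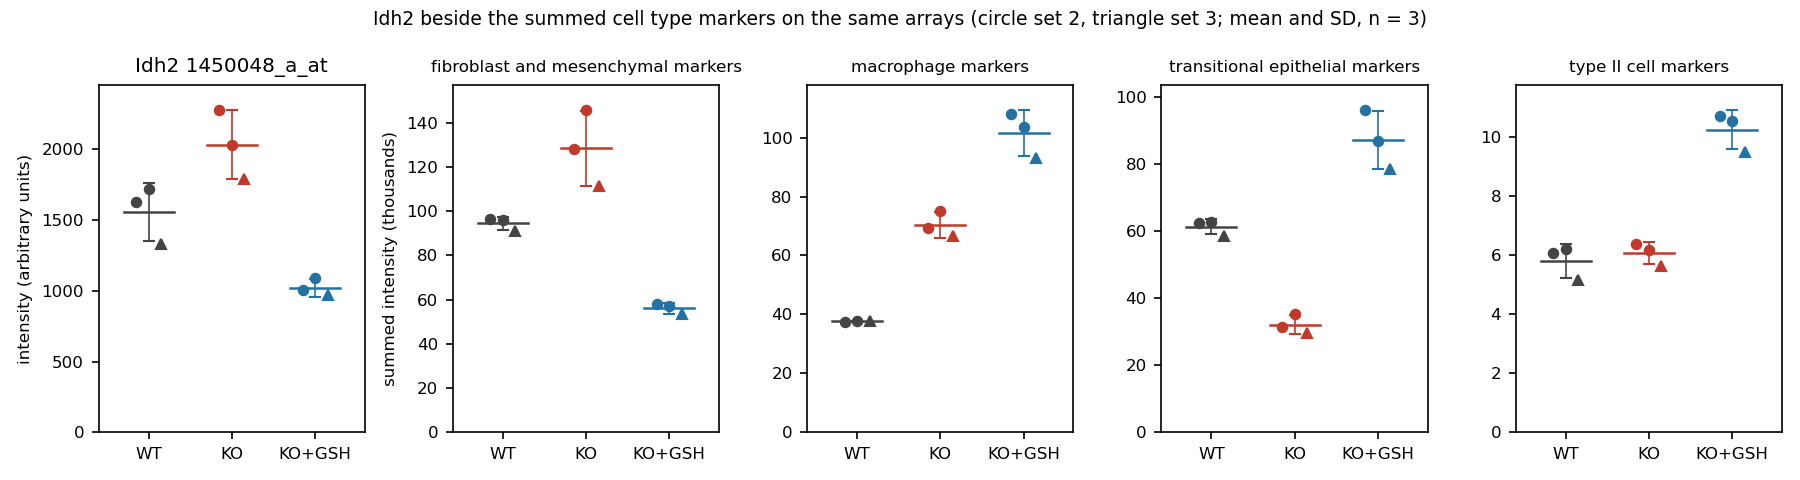
Intensity of Idh2 1450048_a_at and the summed intensity (on a reduced scale, as its axis states) of 4 lists of cell type markers on the same 9 arrays, with mean and SD (n = 3) and axes from 0. Idh2 and the fibroblast and mesenchymal markers are both highest in knockout and lowest with GSH, whereas the transitional epithelial markers are lowest in knockout.

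The gene nearest to each member was found as the smallest root mean square difference of log2 profiles over the 9 arrays, each centred on its own mean, using the brightest probe set of the member. For Me1 these were Slc45a3 (0.09) and the thioredoxin reductase gene Txnrd1 (0.10). Pgd, by 1437380_x_at, was nearest to Irgq (0.05) and Rnd3 (0.06), and Taldo1 to Mycbp (0.07) and Cyb5b (0.07). Tkt, by 1439443_x_at, was nearest to Tbk1 (0.04) and Agps (0.05), and Idh1 to Mindy2 (0.08) and Dpp8 (0.09). These Pgd and Tkt probe sets are of the _x_at kind, whose signal may hold other transcripts. Idh2 was nearest to Mmp2, a matrix metalloproteinase gene (0.08), and Nol3 (0.08). These distances describe 9 arrays in 3 groups and carry no test.

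Among other genes of the pentose phosphate pathway, of 10 tested, H6pd rose and Rpe, the ribulose-phosphate epimerase, fell in knockout (2045 ± 311 to 1531 ± 176, -0.41, limma adjusted p = 0.012), with a median of -0.04. With GSH against knockout 3 rose and 2 fell. The rises were Dera, a deoxyribose-phosphate aldolase (0.37, adjusted p = 0.0017), Tigar, a phosphatase that restrains glycolysis (0.46, adjusted p = 0.010), and Prps2, which makes the ribose donor for nucleotides (0.34, adjusted p = 0.015). Tkfc fell along with H6pd (-0.48, adjusted p = 0.020). Pgls, the lactonase that feeds Pgd, was at 1712 ± 278, 1776 ± 395 and 1870.0 ± 146 in the 3 groups and was not called. Of all probe sets, 29.1% and 35.4% were called in these comparisons.

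Around malic enzyme and the isocitrate dehydrogenases, 1 of 13 tested genes rose and 3 fell in knockout, and 3 rose and 2 fell with GSH against knockout. These shares are near the 29.1% and 35.4% of all probe sets called. Aco1, the cytosolic aconitase that makes isocitrate for Idh1, fell from 5326 ± 550.1 to 4383 ± 544 (-0.28, limma adjusted p = 0.0093) and rose to 6185 ± 840.4 with GSH (0.50, adjusted p = 1.6e-04). Slc25a1, the mitochondrial citrate carrier, fell in knockout (-0.29, adjusted p = 0.011), as did Idh3a, a subunit of the NAD-linked enzyme (-0.20, adjusted p = 0.048), which fell again with GSH (-0.21, adjusted p = 0.034). The rise in knockout was that of Glud1, the mitochondrial glutamate dehydrogenase (0.20, adjusted p = 0.036). The subunit genes Idh3b and Idh3g rose with GSH by 0.22 and 0.21. The mitochondrial malic enzyme gene Me2 fell with GSH (-0.28, adjusted p = 0.036), and Me3 was not called.

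Of 10 tested genes for other NADPH sources, NADP makers and folate enzymes beside them, 0 rose and 1 fell in knockout. The 1 was Mthfd1l (-0.28, limma adjusted p = 0.021), a folate enzyme that, like Shmt1 and Shmt2, makes no NADPH itself. With GSH against knockout 1 rose and 7 fell, with a median of -0.48, where 18.4% of all probe sets were higher and 17.0% lower. Aldh1l2, which makes NADPH from formyl folate in mitochondria, went from 1779 ± 45.0 to 365 ± 33.8 (-2.29, adjusted p = 4.4e-09). Shmt2 went from 3119 ± 479 to 1434 ± 160 (-1.12, adjusted p = 4.4e-07), Mthfd2 fell by 0.99 and Mthfd1l by 0.86 on the log2 scale. The NADPH-forming transhydrogenase gene Nnt fell too (-0.38, adjusted p = 0.0026). The single rise was Nadk, the cytosolic NAD kinase that makes NADP, from 4703 ± 444 to 6479 ± 398 (0.46, adjusted p = 3.8e-04), whereas the mitochondrial kinase gene Nadk2 fell (-0.58, adjusted p = 0.0015). Fibroblast and mesenchymal markers fell in the same comparison, and their part in these values was not tested.

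Enzymes that use NADPH moved in both directions. In knockout 3 of 13 rose and 5 fell, and with GSH against knockout 4 rose and 4 fell, beside 29.1% and 35.4% of all probe sets called in either direction. Gsr, the glutathione reductase, rose in knockout (1.23, limma adjusted p = 1.1e-05) and again with GSH (0.61, adjusted p = 0.0012). Txnrd1, the thioredoxin reductase, fell in knockout (-0.89, adjusted p = 4.5e-06) and rose with GSH (0.35, adjusted p = 0.0031), the order of groups also seen for Me1. Fasn, the fatty acid synthase, fell in both comparisons (-0.62, adjusted p = 1.6e-04, and -0.37, adjusted p = 0.0042), as did the quinone reductase gene Nqo1 (-0.76, adjusted p = 0.0051, and -0.86, adjusted p = 0.0017). Scd1, a fatty acid desaturase also on this list, draws its electrons mainly from NADH. It was not called in knockout (-0.07, adjusted p = 0.51) and went from 3150 ± 292 to 965 ± 61.5 with GSH (-1.70, adjusted p = 6.5e-09). Akr1b8 rose in knockout (0.41, adjusted p = 5.7e-04) and fell with GSH (-0.74, adjusted p = 3.3e-06). Cybb, the phagocyte NADPH oxidase subunit, rose from 6801 ± 440 in wild type to 10236 ± 838 in knockout and 17031 ± 1771 with GSH (0.59 and 0.73, adjusted p = 3.9e-05 and 3.8e-06), as the summed macrophage markers did.

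**Figure D4:**
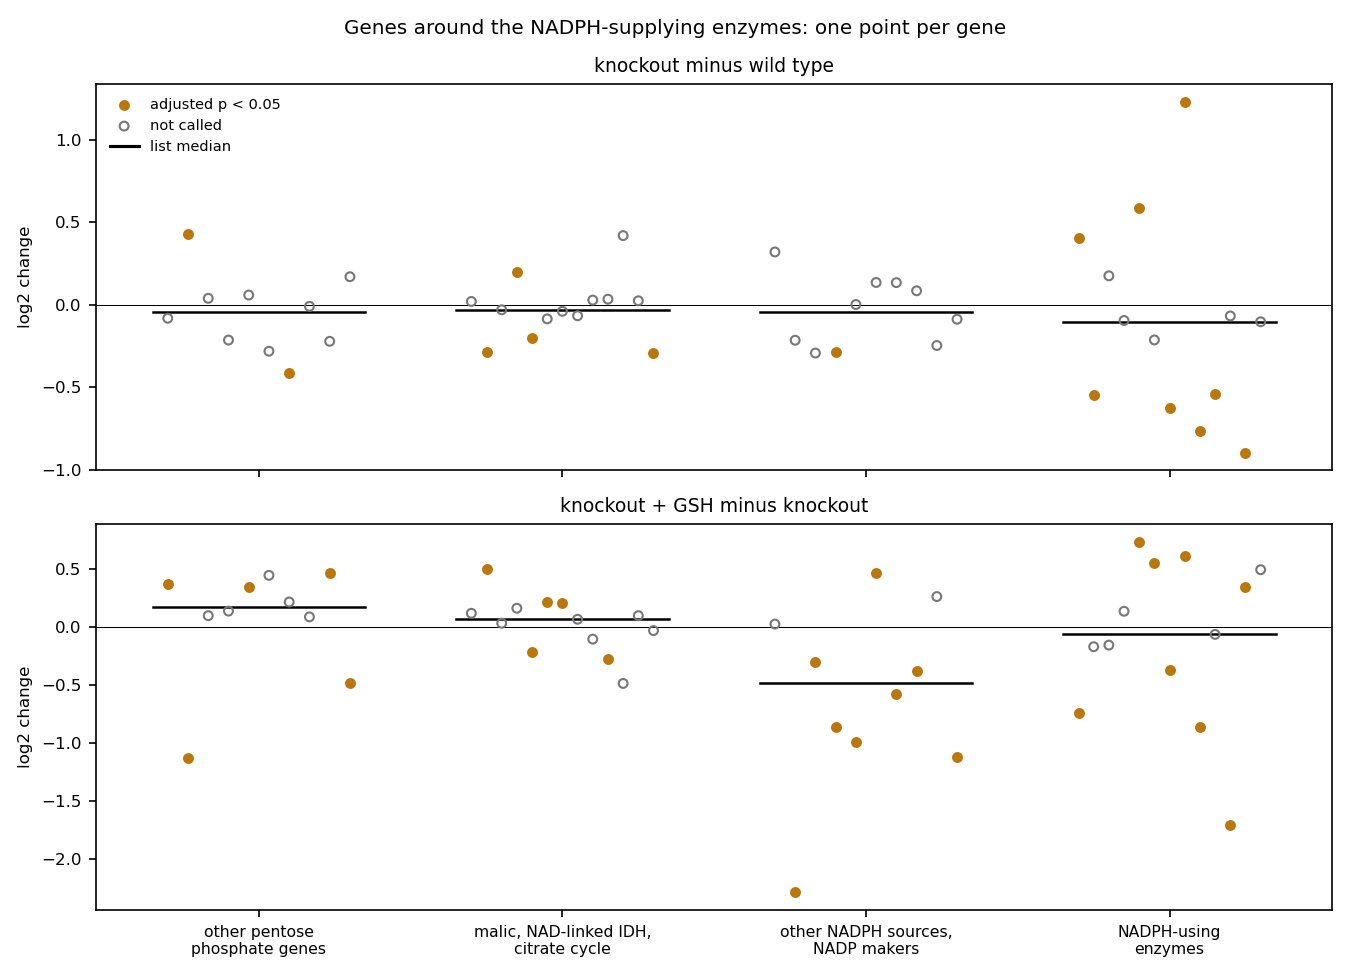
Log2 change of the other genes of the NADPH system in 4 lists, 1 point per gene, for knockout against wild type (upper panel) and knockout with GSH against knockout (lower panel). Filled points have an adjusted p under 0.05 and bars are list medians. The list of other NADPH sources, which also holds NADP makers and folate enzymes, lies near 0 in the upper panel (median -0.04). It lies mostly below 0 in the lower one (median -0.48).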

How the data were processed

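Probe-set intensities on a linear scale were used as the authors deposited them. Their 2% trimmed mean was 500 on each array, which shows a prior scaling. The platform was the Affymetrix Mouse 430 2.0 array, by the series' own design text. No source used here names the software behind the values. Symbols came from GEO's platform annotation, in which 34945 of 45037 probe sets had 1 symbol, 932 several and 9160 none.

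After 64 control probe sets were left out and 2 values at 0 set to 0.1, a limma model (version 3.58.1, R 4.3.3) was fitted to log2 intensity over the 9 arrays, with terms for group and set and an intensity trend. The fit kept 22519 probe sets at or above the median of mean log2 intensity (geometric mean 116), and p was adjusted over these by the Benjamini-Hochberg method. The fit was tested on simulated data. The control level is the 95th percentile of 27 bacterial control probe sets, 43.5 to 82.9 by array. With 3 arrays a group, the number of arrays limits the precision.

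The members and gene lists were chosen with earlier results of these data known. Named were all member probe sets, the Nfe2l2 probe sets and the 2 nearest genes per member. From the pathway lists, genes were drawn from the 4 per list with the smallest p (1 probe set per gene, the brightest). The p was that of knockout with wild type or of GSH with knockout, and not every such gene is printed. Pgls, Tkfc, Me2, Me3, Nnt, Nadk, Nadk2, Nqo1, Slc2a1 and Pkm fall outside this rule and were named after their values were seen.

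Replicate numbers 2, 3 and 4 recur in knockout and in knockout with GSH. Deviations of same-numbered arrays of these groups from their group means had correlations of 0.32, 0.29 and 0.67. Those of set 2 with different numbers had correlations of 0.24 and 0.39. Wild-type replicate 5 and knockout replicate 4, both of set 3, had 0.70. In the knockout groups number 4 occurs only in set 3, so there number and set cannot be told apart. Within set 2 the values of same-numbered arrays lay between those of arrays with different numbers. The numbers were thus not shown to mark pairs. Wild-type arrays share numbers 3 and 4 with knockout, at 0.42 and -0.49. The alternative with the replicate number as a block put these in shared blocks too. Alternatives were other filters, scalings, log offsets, moderation, array subsets and blocks, the fold criteria stated by the submitters, and leaving out each array.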

Additional observations from a re-analysis of the deposited data

How the results depend on the processing

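Of 738 changes of member probe sets recomputed under the alternatives that give a log2 change, 663 kept their status. That number holds changes that stayed called and changes that stayed not called. A call was lost in 61 and gained in 14, and 0 called changes reversed. In knockout against wild type, without the set term 2774 probe sets were called in place of 6560, and with the submitters' fold rule 2187. Members called higher there numbered 4, against 1 with median centring, 1 without the set term, 2 within set 2 and 0 with the fold rule. Members called lower numbered 6, against 2 with the fold rule, which asks for 1.5-fold. With GSH against knockout, 4574 were called without the set term and 3320 with the fold rule in place of 7964, and members called higher numbered 2 and 1 in place of 7. With GSH against wild type, 6181 were called without the set term and 4389 with the fold rule in place of 10074, and 0 members lower with the fold rule in place of 4. With the replicate number as a block in place of the set, 3253 probe sets were called in knockout against wild type, with 0 members higher, and 6586 with GSH against wild type, with 2 members lower. For GSH against knockout this block gave 5824 calls and changed no member call but those of Pgd 1438627_x_at and Tkt 1451015_at. Without the set term the GSH against knockout calls of Pgd 1436771_x_at, Idh1 1419821_s_at and Idh2 1453601_at were also lost (adjusted p = 0.057, 0.053 and 0.076). Leaving out single arrays gave 4511 to 6828 calls in knockout against wild type, 6637 to 7816 with GSH against knockout and 8201 to 10451 with GSH against wild type. Members higher ranged over 2 to 4, 7 to 8 and 4 to 5 there and members lower over 5 to 6, 1 to 1 and 3 to 4. Where a count changed for another reason than fewer arrays or a stricter rule, the cause was not tested. Signal near the control level limits Idh2 1453601_at and Tkt 1436605_at, and the fold rule gives a call but no log2 change.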

Other observations

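Most of the tested genes of glucose entry and glycolysis were higher in knockout cells. Of 11 tested, 8 rose and 0 fell against wild type, with a median of 0.33, beside 14.6% of all probe sets called higher. The phosphofructokinase gene Pfkp rose from 1115 ± 15.0 to 1744 ± 55.5 (0.65, limma adjusted p = 4.8e-05), Pfkl rose by 0.54 and the hexokinase gene Hk1 by 0.48. Not called were the glucose transporter gene Slc2a1 (0.16, adjusted p = 0.16), Hk2 (0.03, adjusted p = 0.78) and Pkm (0.22, adjusted p = 0.052). With GSH against knockout 3 rose and 2 fell, and Pfkm went from 976 ± 131 to 550.4 ± 40.4 (-0.82, adjusted p = 4.7e-05). Macrophage markers were also higher in knockout (13 of 15), and their part in these values was not tested.

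Of 13 mitosis genes tested, 10 rose and 0 fell in knockout, with a median of 0.41, and 0 rose and 12 fell with GSH against knockout, with a median of -0.77. Of all probe sets, 14.6% were called higher in the first comparison and 17.0% lower in the second. Fibroblast and mesenchymal markers moved in the same order (9 of 12 higher in knockout, 11 of 12 lower with GSH), and their part in these values was not tested. Mki67, a proliferation marker, rose in knockout (1.41, limma adjusted p = 8.5e-08) and was the gene not called with GSH (-0.06, adjusted p = 0.57). The kinase gene Plk1 went from 1258 ± 155 to 539 ± 132 with GSH (-1.25, adjusted p = 8.5e-07).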
